A study of Homo sapiens with 35 samples.

Results

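The genes of glycolysis and of the fate of its end product pyruvate were followed through the conversion of human embryonic stem cells to definitive endoderm, the source of the liver, pancreas and gut lining. The set was a fixed list of 34 genes taken by name, out of 16103 genes in the bulk table. All 34 had a row there and in the single-cell matrices. The set and the other gene lists were chosen with earlier results of these data known. Their shares of calls beside those of all genes are therefore descriptions. The set holds 2 glucose transporters, 9 enzymes of upper glycolysis, 3 enzymes that make or remove fructose 2,6-bisphosphate, 6 enzymes of lower glycolysis and 4 lactate genes. It also holds 2 subunits of the mitochondrial pyruvate carrier, 3 subunits of pyruvate dehydrogenase, and 5 kinases and phosphatases of that complex.

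Glycolysis splits glucose into pyruvate in the cytosol. Pyruvate is then either reduced to lactate and exported, or carried into mitochondria and oxidised by pyruvate dehydrogenase, which the PDK kinases switch off and the PDP phosphatases switch on again. Pluripotent stem cells are known for a high glycolytic rate, and many genes of the pathway are classical targets of hypoxia-inducible factors (HIF), which bind the DNA core ACGTG or GCGTG.

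The established line H1 of human embryonic stem cells was profiled by stranded total RNA sequencing in bulk, with 2 libraries in each of 15 groups, and by droplet sequencing in 3 single-cell libraries. Untreated cells were collected at 6 h. CHIR99021 (CHIR), which activates the Wnt pathway by blocking GSK3, was given alone, with Activin A (AA), or with either of 2 compounds known only by the code names BRD and JNJ, and these unsorted arms were collected at 6 h and 24 h; BRD was also given alone at both times. Untreated libraries at 24 h are named in the labels and not analysed here. Sorted definitive endoderm was collected at 72 h from arms that began with CHIR and went on with AA, BRD, JNJ or BRD with an addition labelled LoAA. By the culture protocol CHIR was used at 3 µM on day 1 and Activin A at 100 ng/ml; the doses of BRD, JNJ and LoAA are not given in the sources used here, so a difference between compounds is one between arms as treated. The labels do not say whether the 2 libraries of a group came from separate cultures, so the p-values measure only the spread between these libraries, which may be technical. All cells were of a single line.

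Bulk libraries held 4572385 to 49503832 counts. Library titles number them in series 33 (6 h), 38 (24 h) and 46 (all 72 h libraries and BRD alone). Genes of the MTRNR2L family, nuclear copies of mitochondrial ribosomal RNA, took 7.58% to 13.9% of counts in series 46 and at most 1.10% elsewhere. In series 38, a count of 0 in 1 library beside 50 or more in its replicate was found for 112 to 298 genes a group, but for none of the pathway in any of the 15 groups. Levels are CPM, counts scaled to a common library total with TMM factors. SOX17, the defining endoderm factor, lay at 219 to 398 CPM in the 8 endoderm libraries. It was at 0 in both libraries of CHIR alone at 24 h. Another endoderm marker, CER1, was far lower in the compound endoderm than in Activin A endoderm, with values given further on. FOXA2, CXCR4 and GATA6 are not given here in bulk. The 34 genes together took 1.32% to 1.46% of counts in series 33, 1.21% to 1.57% in series 38, 0.938% to 1.18% in 72 h endoderm and 0.712% to 0.825% in BRD alone. Near-identical copies can share reads in the authors' counting: GENCODE names 62 numbered pseudogenes of GAPDH, 13 of PGAM1, 6 of LDHA, 5 of PKM, 4 each of TPI1 and ENO1, and levels of these genes are uncertain to that extent. Another coding gene overlaps GPI, ALDOA, ALDOC, PFKFB4, PGK1, ENO2 and LDHB on the same strand, which adds the same doubt.

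**Figure D1:**
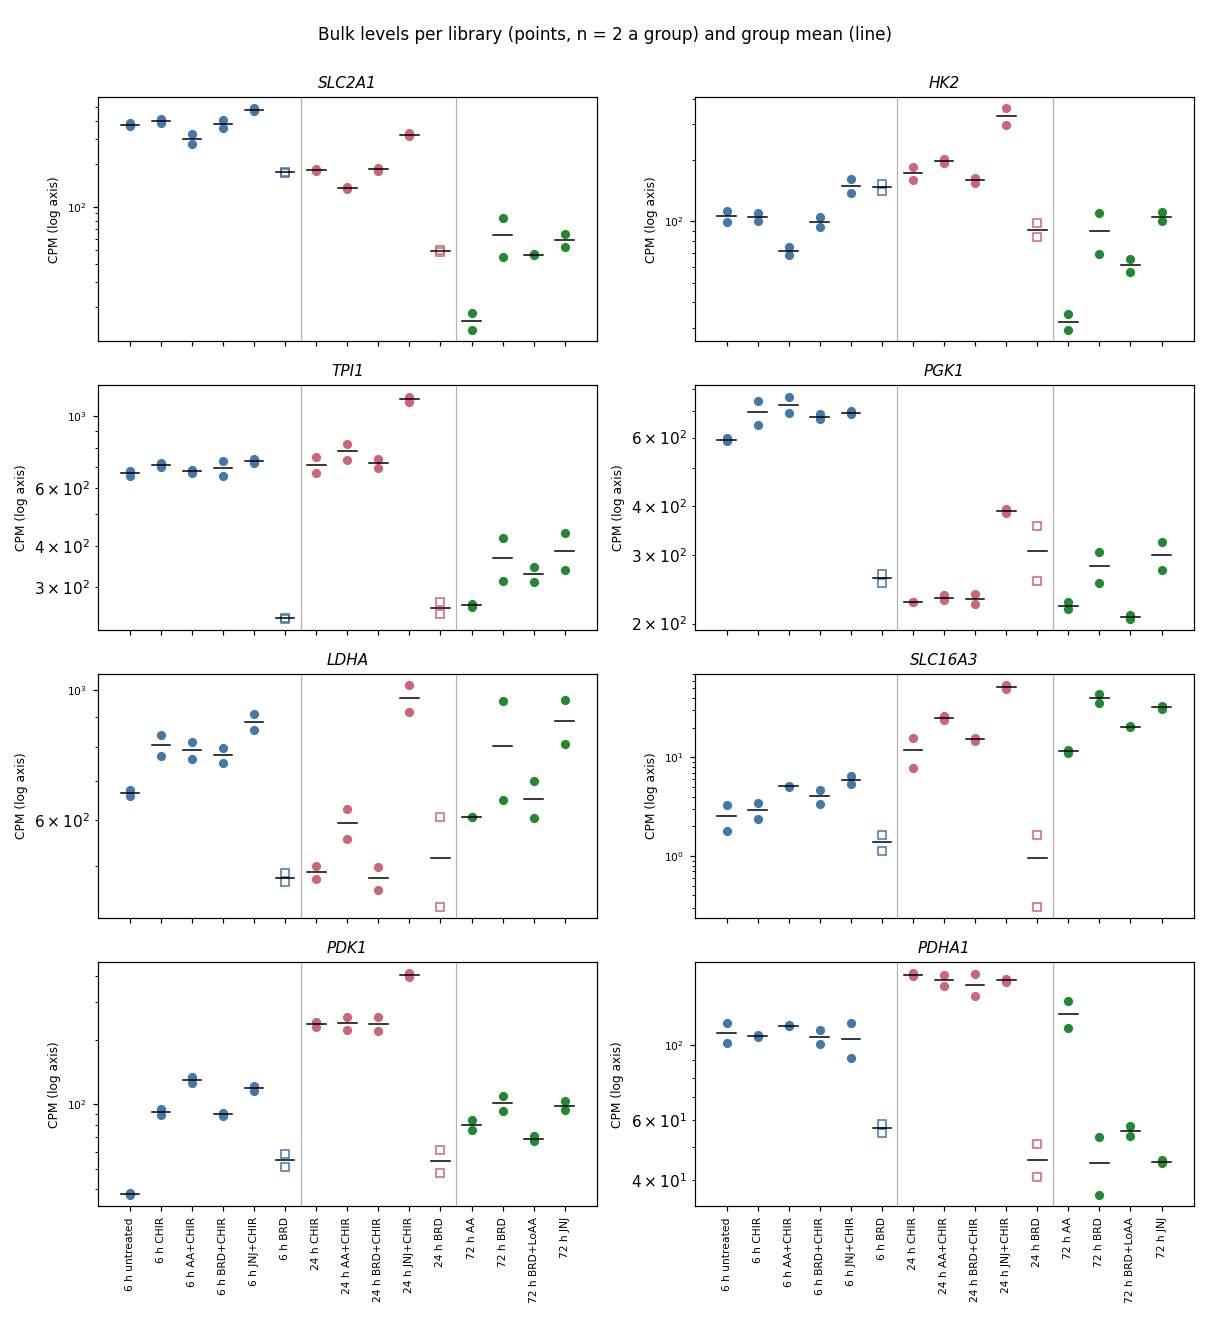
Levels of 8 genes in all 15 bulk groups (y axis, CPM on a log axis; points, the 2 libraries of a group; line, their mean; open squares, BRD alone, from series 46). SLC2A1, HK2, TPI1, PGK1, LDHA, SLC16A3 and PDK1 stand higher with JNJ+CHIR than in every other arm at 24 h, and PDHA1 lies lower in the compound endoderm than in Activin A endoderm.

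With JNJ at 24 h, genes from glucose uptake to lactate export were higher than with CHIR alone. Of the 34 genes, 7 were higher and 0 were lower (edgeR quasi-likelihood test, Benjamini-Hochberg adjusted p under 0.05), or 20.6% of the genes, where 0.154% of all 15586 genes tested were called (0.109% higher, 0.0449% lower). The 7 run along the pathway from glucose uptake to lactate export: the transporter SLC2A1 (GLUT1), the hexokinase HK2, TPI1, PGK1, LDHA, the lactate exporter SLC16A3 (MCT4) and the pyruvate dehydrogenase kinase PDK1. The whole set leaned the same way, with 30 of 34 log2 differences above 0 and a median of 0.39 against -0.003 over all genes tested.

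SLC2A1, the transporter through which most cells take up basal glucose, lay at 185 and 179 CPM with CHIR alone and 330.0 and 312 with JNJ+CHIR, a log2 difference of 0.82 ± 0.11 (standard error, adjusted p = 0.0025). HK2, the inducible hexokinase that traps glucose in the cell, lay at 185 and 159 CPM with CHIR and 298 and 359 with JNJ+CHIR (log2 difference 0.93 ± 0.13, adjusted p = 0.00355). The JNJ libraries stood above the CHIR libraries for both genes with no overlap. TPI1, which interconverts the triose phosphates, rose from 749.9 and 668 to 1144 and 1098 CPM (0.66 ± 0.10, adjusted p = 0.0074), and PGK1, which makes the pathway's first ATP, from 227 and 227 to 385 and 394 CPM (0.78 ± 0.13, adjusted p = 0.0188).

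At the lactate branch 2 of the 4 genes were called. LDHA, the lactate dehydrogenase subunit that favours lactate formation, lay at 501 and 476 CPM with CHIR and 916 and 1019.5 with JNJ+CHIR (0.99 ± 0.13, adjusted p = 0.00322). SLC16A3, the exporter typical of lactate-producing cells, had the largest difference of the 7, from 15.9 and 7.79 to 49.7 and 54.3 CPM (2.13 ± 0.37, adjusted p = 0.0287), although its CHIR libraries lay far apart for so low a level. LDHB, the subunit that favours lactate use, lay at 1009 and 989.6 with CHIR and 1048 and 1007 CPM with JNJ+CHIR, a log2 difference of 0.04 with an interval from -0.14 to 0.22. The ratio of LDHA to LDHB counts, whose change between groups does not depend on gene length, was 0.496 and 0.481 with CHIR and 0.875 and 1.01 with JNJ+CHIR.

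The kinase PDK1, which holds pyruvate dehydrogenase off, rose from 229 and 244 to 411 and 394 CPM (0.77 ± 0.13, adjusted p = 0.0191). The complex it acts on was not called: PDHA1, the catalytic subunit that carries the phosphorylation sites, had 162 and 159 CPM with CHIR and 156 and 153 with JNJ+CHIR, and log2 differences of PDHA1, PDHB and DLAT ran from -0.06 to 0.19. The carrier subunits MPC1 and MPC2 were too thinly counted to place, at 1.2 to 9.68 CPM in these libraries, with intervals of -1.66 to 2.14 and -0.51 to 1.49.

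Among genes that did not pass, the regulatory enzymes PFKFB3 and PFKFB4, which raise the glycolytic activator fructose 2,6-bisphosphate, had log2 differences of 0.83 ± 0.18 (adjusted p = 0.109) and 1.13 ± 0.32 (adjusted p = 0.313). The 6 lower glycolysis enzymes all had positive differences, from 0.29 for GAPDH to 0.78 for PGK1. In all 19 of 34 genes had an unadjusted p under 0.05. The share of all genes tested at that threshold is not given here.

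**Figure D2:**
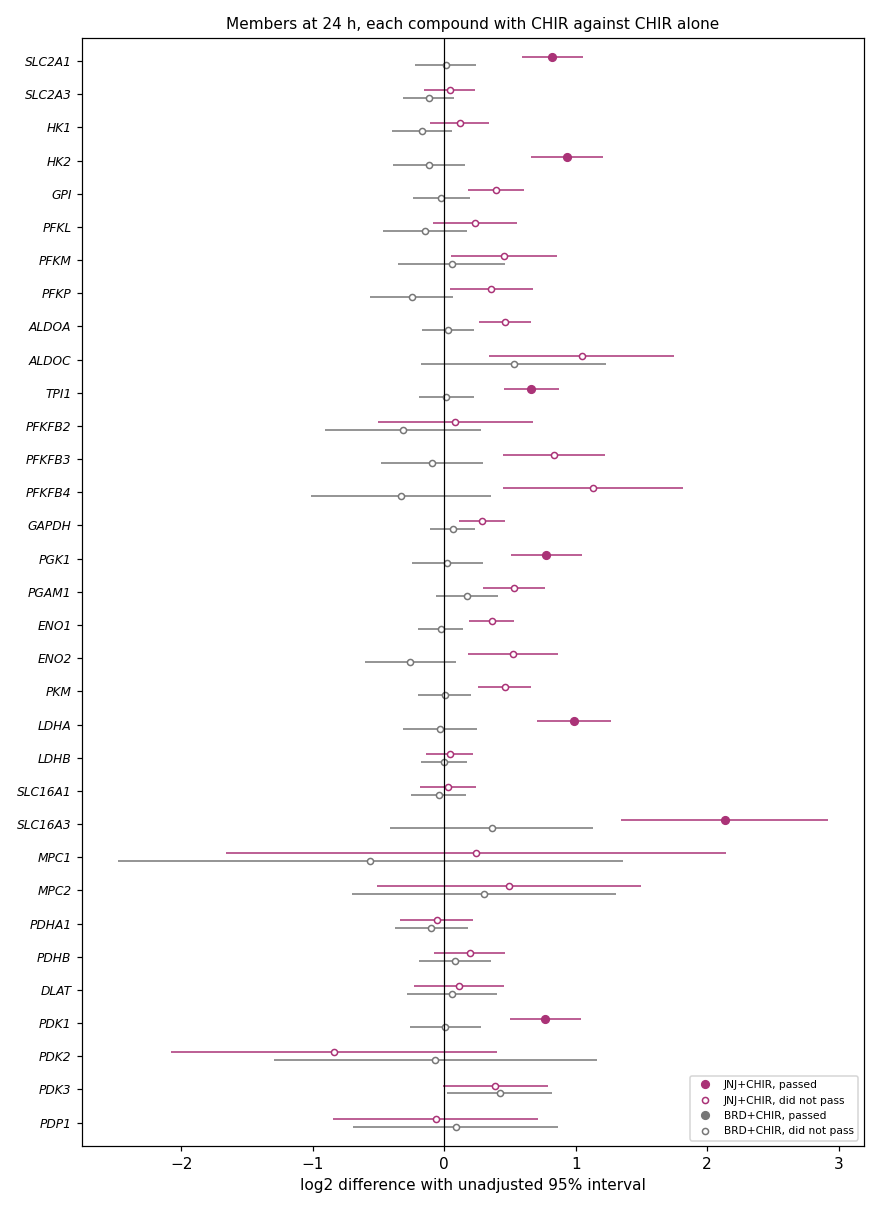
Log2 difference from CHIR alone at 24 h for 33 genes of the set, PDK4 left out for near-zero counts (x axis; points, estimates; bars, unadjusted 95% intervals; filled points passed the adjusted threshold). With JNJ+CHIR, 7 points are filled and all lie to the right of 0, while BRD+CHIR has 0 filled points.

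These calls rest on 2 libraries a group and on the choice of fit. Without a single library, 3 of the 34 genes passed (JNJ+CHIR replicate 1 left out), 1 (JNJ+CHIR replicate 2), 4 (CHIR replicate 1) or 0 (CHIR replicate 2), although no gene of the 7 changed direction and LDHA ran only from 0.91 to 1.06. The BRD-alone libraries come from another series and share the fit's estimate of the spread. Without them 13 genes passed, and DESeq2 called 14, all higher. The shares of all genes called in these fits are not given here, so the larger counts are not read as a stronger result. In bulk RNA, fewer cells of a type and less RNA per cell cannot be told apart. POU5F1, a pluripotency marker, lay close between these arms, at 925 and 876 CPM with CHIR and 965 and 928 with JNJ+CHIR. So did EOMES, a streak marker, at 319 and 309 CPM with CHIR and 319 and 285 with JNJ+CHIR. Other markers of either kind are not given here for these arms. CER1, an early endoderm gene, lay at 101 and 84.1 CPM with CHIR, 70.8 and 49.3 with BRD+CHIR and 29.9 and 29.6 with JNJ+CHIR, and its part in the pathway's differences was not tested. Of the markers of other cells measured in bulk, TFAP2A and GATA3 were at 0 in all 4 libraries and COL1A1 lay at 42.5 and 46.5 CPM with CHIR and 47.3 and 35.6 with JNJ+CHIR.

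No gene of the pathway was called with BRD at 24 h. With BRD+CHIR, edgeR called 0 of 34 genes against CHIR alone, and 0 of all 15586 (0%), with 1 of 34 at an unadjusted p under 0.05 and 0 of 34 by DESeq2. Log2 differences were 0.01 for SLC2A1 (interval -0.22 to 0.24), -0.03 for LDHA (-0.31 to 0.25) and 0.01 for PDK1 (-0.26 to 0.28), so changes the size of those with JNJ lie outside these intervals. SLC16A3 had 15.6 and 14.8 CPM and an interval of -0.41 to 1.13.

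Set directly against BRD+CHIR, JNJ+CHIR was higher for 6 of the 34 genes and lower for 0, where 0.18% of all genes tested were called (0.122% higher, 0.0577% lower). HK2 differed most of the 6, at 155 and 163 CPM with BRD+CHIR, by a log2 of 1.05 ± 0.13 (adjusted p = 0.00159). LDHA was higher by 1.02 ± 0.13 (adjusted p = 0.00294), SLC2A1 by 0.81 ± 0.11, PDK1 by 0.76 ± 0.13, PGK1 by 0.75 ± 0.13 and TPI1 by 0.65 ± 0.10. SLC16A3 did not pass (1.77, adjusted p = 0.0878). The comparison shares its JNJ+CHIR libraries with the one against CHIR alone. Leaving out BRD+CHIR replicate 1 left 0 genes called, BRD+CHIR replicate 2 left 1, and either JNJ+CHIR library left 3; without the BRD-alone libraries 14 passed.

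Genes from neighbouring lists placed the pathway in context at 24 h with JNJ+CHIR. Of 15 genes known to be induced by hypoxia but outside glycolysis, 4 rose and 0 fell, where 0.109% of all genes were higher and 0.0449% lower, with a median log2 difference of 0.93: the mitophagy receptor BNIP3 went from 328 and 299 to 691 and 747 CPM (1.20 ± 0.13, adjusted p = 0.000279), BNIP3L rose by 0.82 and the histone demethylase KDM3A by 0.89. With single libraries left out, 2 of the 15 were called when a JNJ+CHIR library was dropped and 1 when a CHIR library was, and BNIP3 was called each time. Of 9 genes of oxygen sensing, 1 rose, the HIF hydroxylase EGLN1 (1.35 ± 0.24, adjusted p = 0.0342), itself a known HIF target; this call was lost when any 1 of the 4 libraries was left out. In routes beside glycolysis 0 of 7 pentose phosphate genes and 0 of 18 citric acid cycle genes were called by edgeR, with medians of 0.06 and 0.02 (1 and 3 at an unadjusted p under 0.05). Of 30 further genes of glucose and pyruvate handling that were tested, 0 were called and 3 had an unadjusted p under 0.05.

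Promoters of the genes of the set were searched for the HIF core. RefSeq promoter windows (GRCh38.p14) matched 30 of the 34 genes, with 60 windows of 250 bases before a transcript start. ACGTG, read on both strands, occurred in 21 of 60 windows (35%) against 18.5% of 35116 windows of all genes, and GCGTG in 33.3% against 32.2%. The palindrome CACGTG, which counts as an ACGTG on each strand, occurred in 13.3% against 6.34%. Windows of a gene can overlap, so these shares are descriptions. They cover genes called and not called with JNJ+CHIR. Of genes not called, PDHB had 3 ACGTG and 3 GCGTG matches and ALDOC 3 and 2, while PGAM1, LDHB and PKM had 0. SLC2A1 had neither motif in its window. A match says only that these letters are there, and no match that they are not. Binding of HIF was not tested. The stretches printed here are the 60 bases outside annotated exons that hold the most matches, for the 5 of the 7 called genes with at least 2 matches in such a stretch. PDK1 has 2 ACGTG matches close to one of its starts, but no match in a stretch clear of annotated exons, so none of its bases are shown. In the lines here capitals mark the motifs, CACGT being ACGTG on the other strand, and each is read 5′ to 3′ on the plus strand, which is also the gene's. They lie at chr2:74834976-74835035 (HK2, 194 to 135 bases before a RefSeq transcript start), chr11:18394328-18394387 (LDHA, 235 to 176) and chrX:78104037-78104096 (PGK1, 211 to 152). The others lie at chr12:6868037-6868096 (TPI1, 68 to 9) and chr17:82228972-82229031 (SLC16A3, 70 to 11). That start is not the first base of the gene spans given below. The stretches of HK2, PGK1, TPI1 and SLC16A3 lie within those spans, and that of LDHA ends just before its span.
HK2: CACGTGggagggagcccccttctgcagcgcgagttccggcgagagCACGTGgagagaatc
LDHA: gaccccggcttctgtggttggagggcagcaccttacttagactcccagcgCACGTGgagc
PGK1: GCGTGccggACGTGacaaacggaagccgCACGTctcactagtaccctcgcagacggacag
TPI1: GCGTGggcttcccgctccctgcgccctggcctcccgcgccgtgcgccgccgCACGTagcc
SLC16A3: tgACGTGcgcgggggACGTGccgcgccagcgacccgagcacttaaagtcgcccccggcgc
HK2 holds 2 CACGTG palindromes, LDHA holds 1, and PGK1 holds GCGTG with 2 further ACGTG cores on opposite strands. By GENCODE 29 on GRCh38, the genes themselves are protein coding and lie at chr2:74833981-74893359, plus strand (HK2), chr11:18394388-18408425, plus strand (LDHA), chrX:77910739-78129296, plus strand (PGK1), chr12:6867119-6870948, plus strand (TPI1), chr17:82228397-82261129, plus strand (SLC16A3), chr1:42925375-42959176, minus strand (SLC2A1) and chr2:172555373-172608669, plus strand (PDK1).

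At 6 h few differences of the pathway were detected with either compound. With JNJ+CHIR, edgeR called 0 of the 33 genes tested against CHIR alone (PDK4 had too few counts), where 0.0202% of 14874 genes were called; 5 had an unadjusted p under 0.05, and DESeq2 called 1. HK2 had 109 and 100.1 CPM with CHIR and 137 and 161 with JNJ+CHIR (0.51 ± 0.11, adjusted p = 0.273), and PDK1 had 88.9 and 95 and 116 and 122 (0.38 ± 0.10, adjusted p = 0.822). The JNJ libraries lay above the CHIR libraries for both, without passing the test. The share of all genes separated in this way is not given here. With BRD+CHIR, 0 of 33 were called against CHIR alone (0% of all genes; 1 of 33 had an unadjusted p under 0.05, and DESeq2 called 0). Against BRD+CHIR, JNJ+CHIR gave 0 calls of 33 (0.0202% of all genes), 9 at an unadjusted p under 0.05 and 1 by DESeq2; HK2 differed by 0.59 ± 0.11 (adjusted p = 0.0706).

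Whether the JNJ difference grew between 6 h and 24 h was tested as the difference of differences. By edgeR 0 of 34 genes passed (0.00636% of 15717 genes were called), with 15 at an unadjusted p under 0.05 and 7 by DESeq2, or 3 by edgeR without the BRD-alone libraries. LDHA had 0.84 ± 0.16, PGK1 0.76 ± 0.15 and TPI1 0.60 ± 0.12 more log2 difference at 24 h, each with adjusted p = 0.063. HK2 had a log2 difference of 0.51 at 6 h and 0.41 more at 24 h (interval 0.05 to 0.76). For BRD, 0 of 34 passed (0.00636% of all genes), with 2 at an unadjusted p under 0.05 and 0 by DESeq2.

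CHIR alone was first compared with untreated cells at 6 h. Against untreated cells, 2 of 33 rose and 1 fell, or 9.09%, where 2.96% of all 14874 genes were called (1.69% higher, 1.28% lower). PDK1 rose from 37.6 and 38.4 to 88.9 and 95 CPM (1.27 ± 0.10, adjusted p = 3.95e-07), the largest difference of the set and a call kept under all 10 alternative analyses. SLC2A3, the high-affinity glucose transporter GLUT3, rose from 558 and 579 to 743 and 714 CPM (0.35 ± 0.07, adjusted p = 0.00483), a call lost when CHIR replicate 1 or untreated replicate 1 was left out, which left 1 gene called. HK1, the constitutive hexokinase, fell from 344 and 361 to 303 and 275 CPM (-0.29 ± 0.08, adjusted p = 0.0493) and kept its call in 1 of 10 alternatives. LDHA stood at 675 and 660.3 CPM untreated and 772 and 839 with CHIR without passing (0.26, adjusted p = 0.0589).

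Activin A, the Nodal substitute that drives endoderm, was compared with CHIR alone at both times. At 6 h 1 of 33 genes rose and 2 fell, or 9.09%, where 1.49% of all genes were called (0.76% higher, 0.733% lower). PDK1 rose to 126 and 134 CPM (0.50 ± 0.10), HK2 fell to 68.1 and 75.2 (-0.55 ± 0.11) and SLC2A1 fell to 325 and 277 (-0.41 ± 0.09). Leaving out either CHIR library left 0 of these calls, and leaving out AA+CHIR replicate 2 left 1. At 24 h, 0 genes rose and 2 of 34 fell, or 5.88%, where 2.86% were called (1.24% higher, 1.62% lower). SLC2A1 fell from 185 and 179 to 137 and 134 CPM (-0.42 ± 0.11, adjusted p = 0.0482), and ENO2, the enolase isoform known from neurons, from 63.2 and 63.1 to 40.0 and 35.6 (-0.74 ± 0.16, adjusted p = 0.0184). Leaving out any library of these arms left 0 calls, and 5 genes passed without the BRD-alone libraries. PKM, the last enzyme of glycolysis, had 1193 and 1289 CPM with AA+CHIR against 1001 and 926 (0.37, adjusted p = 0.0524). Between 6 h and 24 h the Activin A difference itself changed for 1 of 34 genes, HK2 (0.75 ± 0.17, adjusted p = 0.0228), where 1.9% of all genes were called (0.617% higher, 1.28% lower); leaving out 24 h AA+CHIR replicate 2, 24 h CHIR replicate 2, 6 h AA+CHIR replicate 1 or either 6 h CHIR library left 0.

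Between 6 h and 24 h genes of the pathway moved in both directions. With CHIR alone 6 genes were higher and 11 lower at 24 h, or 50% of the set, where 37.9% of all 15717 genes were called (18.6% higher, 19.3% lower). With AA+CHIR it was 9 and 10, or 55.9%, where 42.2% were called (20.8% higher, 21.4% lower). PGK1 fell from 646 and 746 to 227 and 227 CPM with CHIR (-1.60 ± 0.11) and from 764 and 693 to 230.3 and 236 with AA+CHIR (-1.62 ± 0.11). SLC2A1 fell by 1.12 and 1.13 in these arms and MPC2 by 1.45 and 1.94 on the log2 scale. HK2 rose by 0.73 and 1.48, PDK1 by 1.38 and 0.90, and SLC16A3 by 2.04 and 2.33.

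The 6 h and 24 h libraries of these arms lie in different series, so time and series cannot be told apart there. BRD alone was sequenced at both times within series 46, without CHIR. There 1 gene was higher and 5 lower at 24 h, or 17.6%, where 12.9% of all genes were called (3.91% higher, 9.01% lower). SLC2A1 fell from 176 and 174 to 49.8 and 48 CPM (-1.86 ± 0.10) and SLC2A3 from 711 and 712 to 377 and 363 (-0.97 ± 0.07). HK2 fell from 153 and 141 to 83.9 and 98.3 CPM (-0.70 ± 0.12), against the direction in both CHIR arms. PGK1 had 268 and 254 CPM at 6 h and 355 and 257 at 24 h. Leaving out 6 h replicate 1 left 3 calls, and leaving out 24 h replicate 2, the library of 49503832 counts, left 9.

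**Figure D3:**
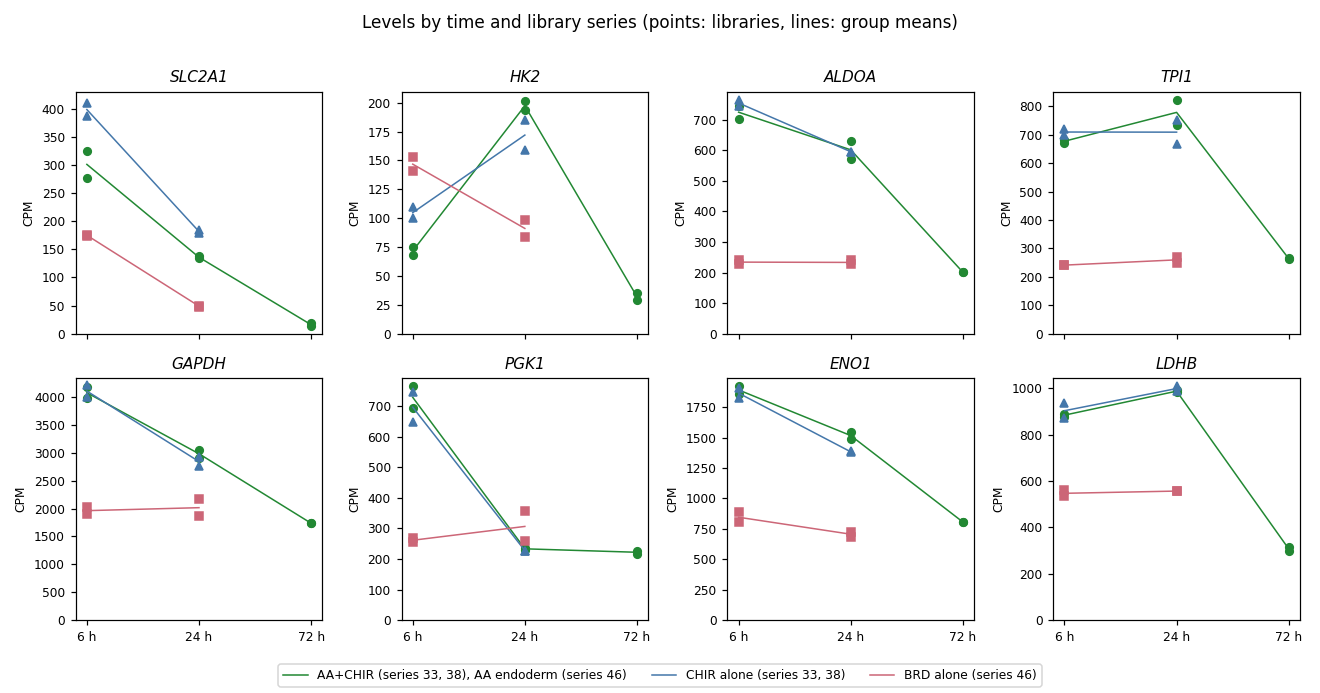
Levels of 8 genes by time and library series (x axis, time; y axis, CPM; points, libraries; lines, group means; green, AA+CHIR and then AA endoderm; blue, CHIR alone; red, BRD alone, series 46). ALDOA and TPI1 of BRD alone lie close to the 72 h endoderm of the same series and below the CHIR arms at both times, and SLC2A1 of BRD alone also lies below the CHIR arms at both times but above the 72 h Activin A endoderm.

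The early arms and the 72 h endoderm were also set side by side. In Activin A endoderm against AA+CHIR at 24 h, 6 genes were higher and 16 lower, or 64.7%, where 40.9% of 15562 genes were called (19.6% higher, 21.3% lower), with a median log2 difference of -0.49 against -0.01 over all genes. SLC2A1 had 137 and 134 CPM at 24 h and 13.7 and 18.1 at 72 h (-3.10 ± 0.22), and HK2 had 194 and 201 and 29.2 and 34.9 (-2.62 ± 0.19). Higher in endoderm were the transporter SLC2A3 (0.71 ± 0.12), the pyruvate dehydrogenase subunit PDHB (1.34 ± 0.14) and its activating phosphatase PDP1 (1.84 ± 0.32). Time, sorting and series change together here and cannot be told apart. TPI1 lay at 267 and 261 CPM in Activin A endoderm and at 270.1 and 249 in unsorted BRD-alone cells of the same series at 24 h, against 734 and 822 with AA+CHIR. ALDOA lay at 202 and 201 CPM in Activin A endoderm, 239.8 and 226 in BRD alone and 572 and 630.2 with AA+CHIR. In BRD alone at 24 h SLC2A1 and HK2 lay between the other groups.

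Within series 46, endoderm made with the compounds had higher levels of SLC2A1, HK2 and SLC16A3, and lower levels of PDHA1 and PDHB, than endoderm made with Activin A. With BRD 7 genes were higher and 3 lower, or 29.4%, where 21.3% of 13889 genes were called (9.71% higher, 11.6% lower). With JNJ the counts were 12 and 3, or 44.1%, where 18.5% were called (8.57% higher, 9.92% lower). With BRD+LoAA they were 7 and 5, or 35.3%, where 19.4% were called (8.86% higher, 10.5% lower). All of these comparisons share the same 2 Activin A libraries. Median log2 differences were 0.28, 0.27 and 0.11, against 0.01, 0.01 and 0.02 over all genes.

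SLC2A1 had 13.7 and 18.1 CPM in Activin A endoderm, 44.8 and 83.4 with BRD, 46.7 and 45.8 with BRD+LoAA and 52.7 and 65.1 with JNJ. Every compound library was above both Activin A libraries, with log2 differences of 2.02 ± 0.26 for BRD, 1.89 ± 0.27 for JNJ and 1.56 ± 0.27 for BRD+LoAA (adjusted p = 0.000144, 0.000264 and 0.00127). HK2 had 29.2 and 34.9 CPM in Activin A endoderm, 69.2 and 109.7 with BRD, 65.2 and 56.2 with BRD+LoAA and 100.3 and 111 with JNJ, differences of 1.48 ± 0.20 for BRD, 1.71 ± 0.20 for JNJ and 0.93 ± 0.21 for BRD+LoAA. SLC16A3 had 11.2 and 11.9 CPM in Activin A endoderm, 35.6 and 43.6 with BRD, 20.9 and 20.2 with BRD+LoAA and 30.9 and 33.3 with JNJ (1.77 ± 0.20 for BRD, 1.46 ± 0.20 for JNJ and 0.83 ± 0.20 for BRD+LoAA). For these 3 genes no compound library fell within the range of the Activin A libraries.

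Further along the pathway, GPI, the isomerase after hexokinase, had 114 and 114 CPM in Activin A endoderm, 188 and 217 with BRD, 167 and 168 with BRD+LoAA and 199 and 222 with JNJ (0.82 ± 0.13 for BRD, 0.87 ± 0.13 for JNJ and 0.56 ± 0.13 for BRD+LoAA). ENO2 had 55.8 and 46.2 CPM in Activin A endoderm, 99.1 and 100.4 with BRD, 84.2 and 86.7 with BRD+LoAA and 100.1 and 116 with JNJ (0.95 ± 0.14 for BRD, 1.06 ± 0.14 for JNJ and 0.74 ± 0.14 for BRD+LoAA). The more abundant enolase ENO1 was not called in any of the 3 comparisons, with log2 differences of -0.06, 0.02 and -0.18. ALDOA passed with BRD (0.60) and JNJ (0.72), PFKP, the platelet-type phosphofructokinase, with JNJ (0.69) and BRD+LoAA (0.60), and ALDOC, TPI1, PGK1 and LDHA with JNJ (1.05, 0.54, 0.42 and 0.53). Their values with BRD were 0.81, 0.47, 0.32 and 0.39, and a direct test between the compounds is given further on. In BRD+LoAA, SLC2A3 (-0.41) and PKM (-0.65) were lower.

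Subunits of pyruvate dehydrogenase went the other way. PDHA1, the catalytic subunit, had 135 and 112 CPM in Activin A endoderm, 36.1 and 53.6 with BRD, 53.8 and 57.8 with BRD+LoAA and 44.8 and 45.8 with JNJ, differences of -1.47 ± 0.18 for BRD, -1.46 ± 0.18 for JNJ and -1.15 ± 0.18 for BRD+LoAA. PDHB, its partner in the same enzyme, had 338 and 261 CPM in Activin A endoderm, 131 and 155 with BRD, 155 and 154 with BRD+LoAA and 149.8 and 167 with JNJ (-1.08 ± 0.15 for BRD, -0.94 ± 0.14 for JNJ and -0.96 ± 0.15 for BRD+LoAA). The activating phosphatase PDP1 had 66.6 and 55.4 CPM in Activin A endoderm, 30.4 and 34.5 with BRD, 36.2 and 28 with BRD+LoAA and 36.1 and 32.9 with JNJ (-0.93 ± 0.18 for BRD, -0.84 ± 0.18 for JNJ and -0.93 ± 0.18 for BRD+LoAA), while the inhibitory kinase PDK3 had 30.4 and 24.7 CPM in Activin A endoderm, 60.8 and 59.2 with BRD, 52.8 and 46.9 with BRD+LoAA and 53 and 65 with JNJ (1.10 ± 0.17 for BRD, 1.08 ± 0.17 for JNJ and 0.85 ± 0.17 for BRD+LoAA). All compound libraries lay below the Activin A libraries for the 2 subunits and the phosphatase, and above them for the kinase. DLAT, the acetyl-transferring core of the complex, was not called, with -0.15, -0.19 and 0.05, nor was PDK1, with 0.33, 0.28 and -0.21. PDK4 stayed at or under 8.59 CPM in all 30 libraries and is given no fold.

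**Figure D4:**
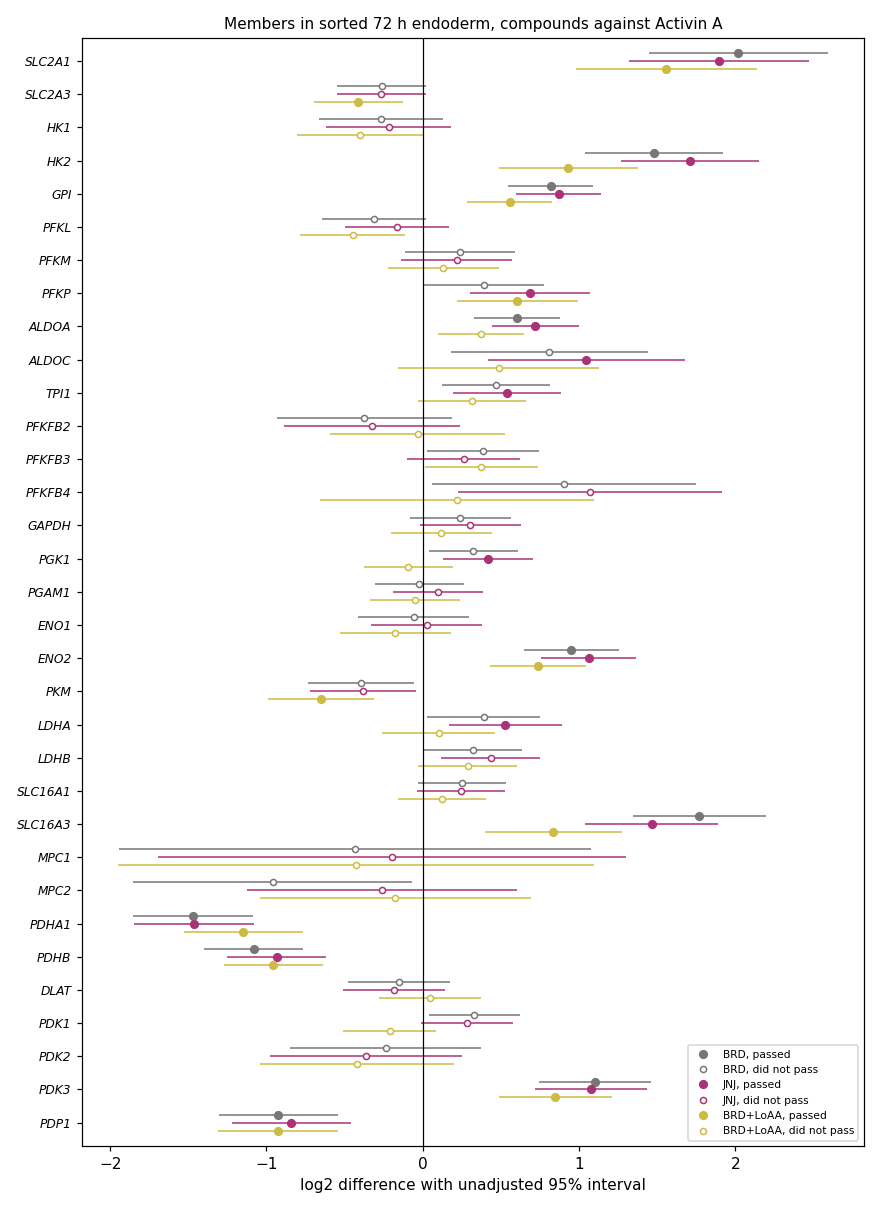
Log2 difference from Activin A endoderm at 72 h for 33 genes, PDK4 left out (x axis; points, estimates; bars, unadjusted 95% intervals; filled points passed the adjusted threshold; the 3 arms share their control libraries). SLC2A1, HK2, GPI, ENO2, SLC16A3 and PDK3 are filled to the right and PDHA1, PDHB and PDP1 to the left of 0 for each arm.

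Leaving out single libraries kept every one of the 10 calls with BRD. With JNJ the count ran from 10 (JNJ replicate 2 or Activin A replicate 1 left out) to 16, and the calls of PFKP, ALDOC, TPI1, PGK1, LDHA and PDP1 were lost in 1 or more of these. With BRD+LoAA, 6 genes were called without Activin A replicate 1. Its calls of HK2 and SLC16A3 were lost without Activin A replicate 1 or BRD+LoAA replicate 1, and those of SLC2A3, GPI, PFKP, PKM and PDP1 in 1 or more of these, while SLC2A1, ENO2, PDHA1, PDHB and PDK3 passed in each. The endoderm groups also differed in markers of cell identity. CER1, a Nodal and BMP antagonist of anterior endoderm, lay at 4372 and 3746 CPM with Activin A and at 50.6 to 119 in the 6 compound libraries, and SOX17 at 385 and 398 against 219 to 258. Of the markers of other cells, GATA3 lay at 4.03 and 7.24 CPM with Activin A and at 110 to 149 with the compounds, COL1A1 at 61.2 and 60.9 and 100.1 to 165, and TFAP2A at 2.1 or less in every endoderm library; their sum was 65.5 and 68.4 against 231 to 286 CPM. PAX6 and SOX1 were not analysed here in bulk. Their part in the pathway's differences was not tested.

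Compounds were also compared with each other at 72 h. JNJ against BRD endoderm gave 0 calls of 34 by edgeR (0% of 13889 genes), 0 at an unadjusted p under 0.05 and 0 by DESeq2. The intervals bound how far they could differ: -0.64 to 0.39 for SLC2A1, -0.18 to 0.64 for HK2, -0.22 to 0.50 for LDHA and -0.38 to 0.40 for PDHA1. BRD+LoAA against BRD also gave 0 calls (0% of all genes, and 0 with DESeq2), while 4 had an unadjusted p under 0.05 and were lower with LoAA: SLC16A3 (-0.94, adjusted p = 0.791), PDK1 (-0.54), PGK1 (-0.42) and HK2 (-0.55).

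Lists around the pathway were read in the same endoderm comparisons. The list of 18 citric acid cycle genes includes the cytosolic MDH1, which lies outside the mitochondrial cycle. With BRD 0 rose and 3 fell, with JNJ 1 rose and 2 fell, and with BRD+LoAA 0 rose and 1 fell. MDH1 was among those that fell each time and was the 1 with BRD+LoAA. These shares lie below the 21.3%, 18.5% and 19.4% of all genes called. MDH1, the cytosolic malate dehydrogenase, had -0.85, -0.82 and -0.64, the last no longer called without BRD+LoAA replicate 2, Activin A replicate 1 or Activin A replicate 2. Of 14 hypoxia-induced genes outside glycolysis, 6, 5 and 4 rose and 0, 0 and 3 fell, where 9.71%, 8.57% and 8.86% of all genes were higher and 11.6%, 9.92% and 10.5% lower. With single libraries left out the counts that rose ran from 4 to 6, from 4 to 5 and from 2 to 3, and 1 to 2 fell with BRD+LoAA. ADM, a vasodilator peptide, rose by 2.45, 2.37 and 2.75. BNIP3 fell with BRD+LoAA (-0.82 ± 0.15). Among further genes of glucose and pyruvate handling, PCK2, the mitochondrial enzyme that makes phosphoenolpyruvate, fell by 1.14, 1.09 and 1.25, and PDPR, a regulator of the phosphatase, rose by 0.67, 0.62 and 0.77; the PDPR call was lost without Activin A replicate 1 for BRD and JNJ, and for JNJ also without Activin A replicate 2 or JNJ replicate 1.

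Single cells gave a view of the same genes in Activin A cells at 36 h and in endoderm (Endo) and mesoderm (Meso) at 72 h, the last made with a commercial mesoderm medium. Cells were sorted before loading. Each condition had 1 library, so no test was made; values are CPM of UMIs (counted molecules) summed over kept cells, with exact Poisson 95% intervals that cover counting error only. After filters on genes and mitochondrial share, 4193 of 6244, 4511 of 6321 and 5632 of 6266 barcodes were kept, with medians of 21152, 7680 and 7874 UMIs. The libraries shared 50 to 56 barcodes pairwise. SOX17 had 122 CPM in Endo and 0 UMIs in the other libraries, and TBXT, a streak and mesoderm factor, 326 in Meso and 3.05 in Endo. CER1 (2963 in Endo, 0.0887 in Meso) and the mesoderm marker TBX6 (7.58 in Endo, 82.1 in Meso) also followed the labels. Not all markers did. The mesoderm marker PDGFRA had 19.7 CPM in Endo and 18.9 in Meso. The streak marker EOMES had 71.2 at 36 h, 272 in Endo and 4.19 in Meso. POU5F1 had 995, 310 and 434 at 36 h, in Endo and in Meso. The 34 genes took 1.19%, 1.07% and 1.23% of UMIs at 36 h, in Endo and in Meso.

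SLC2A1, PDK1 and HK2 stood lower in Endo than at 36 h and higher in Meso. SLC2A1 stood at 61.7 CPM at 36 h, 13 (95% interval 11.8 to 14.3) in Endo and 139 (95% interval 135 to 142) in Meso, a level 10.7 times that of Endo in Meso. PDK1 stood at 24.7, 15.9 and 81.4, and HK2 at 9.45, 6.19 and 16.6. SLC16A3 stood at 3.32 (95% interval 2.92 to 3.75) at 36 h, 49.8 in Endo and 227 in Meso. Meso was the highest of the 3 libraries for all 4 genes. For SLC16A3 the rise from 36 h to Endo ran against bulk. There it fell from 24.2 and 26.4 CPM with AA+CHIR at 24 h to 11.2 and 11.9 in Activin A endoderm. GPI and PFKFB4 also rose to Endo but were called lower in bulk endoderm, and SLC16A1 and PDHB did the reverse. Other genes called in bulk went the same way, leaving aside ALDOA, and PFKFB3 with overlapping intervals. The starting times differ, and the cause was not tested.

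LDHA stood at 474 at 36 h, 798 in Endo and 1172 in Meso, while LDHB was highest at 36 h, at 1787, 742 and 1088. PKM was highest in Endo, at 1047 against 477 at 36 h and 568 in Meso, and so was the transporter SLC2A3, at 259 against 141 and 145. PDHB had 177, 157 and 80.6, with Meso lowest. With intervals apart, Endo was higher than 36 h for 15 genes and lower for 17. Meso was higher than 36 h for 19 and lower for 9, and Endo was higher than Meso for 11 and lower for 21. These intervals are narrow, and GAPDH counted as apart at a ratio of 0.95 of Endo over 36 h. The share of all genes apart was not computed, so the counts are not read as a trait of the pathway. ALDOA had only 3.3, 14.3 and 11.4 CPM in single cells and 200.5 to 844 CPM in bulk. The annotation places the coding gene AC093512.2 over it on the same strand, and its single-cell values are not read as a level.

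**Figure D5:**
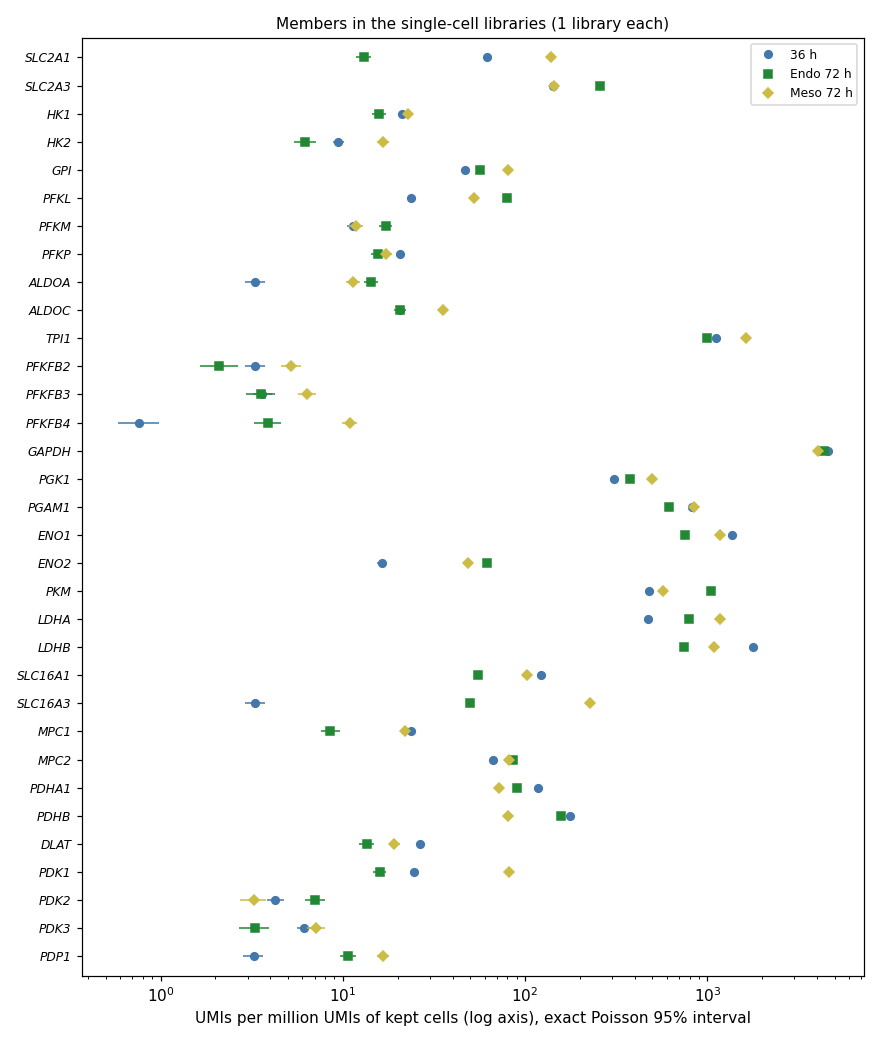
CPM of UMIs in the 3 single-cell libraries for 33 genes, PDK4 left out (x axis, log scale; points, library values; bars, exact Poisson 95% intervals, counting error only). SLC2A1, PDK1, SLC16A3 and PFKFB4 are highest in Meso, SLC2A3 and PKM in Endo, and LDHB, SLC16A1 and ENO1 at 36 h; ALDOA is drawn but not read as a level.

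Within libraries, cells were divided by a UMI of a stage gene after each was thinned to 2000 UMIs. Such a division is a range of cells, not a type. How many of all genes had intervals apart in these divisions was not computed. In Endo, 731 cells with SOX17 and 2954 without were compared (826 shallower cells left out): SLC2A3 was higher with SOX17, at 319 against 231 CPM, and TPI1, GAPDH, PGK1, ENO1, LDHA and LDHB were lower, LDHB at 609 against 729.9. In Meso, 2515 cells with TBXT had less PFKP, TPI1, GAPDH, PGK1, ENO1, PKM and LDHA than 3024 without (93 left out), LDHA at 1095 against 1228. At 36 h, 414 cells with EOMES, a streak and endoderm factor, and 3002 without differed with intervals apart only for PGAM1, at 871 against 769.7 CPM (777 left out). With cells thinned to 5000 UMIs, PKM, SLC16A3 and PDHB were apart at 36 h and PGAM1 was not. In Meso PFKP was then no longer apart, at 16.9 against 18.8 CPM in place of 12.9 against 20.7, while the other 6 genes were, and PGAM1, LDHB and SLC16A3 were apart as well. In Endo all 7 genes stayed apart at that depth, and SLC2A1, PGAM1 and PKM were lower too.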

How the data were processed

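H1 cells were profiled in 15 bulk groups of 2 libraries and 3 single-cell libraries; untreated cells at 24 h have labels but were not analysed here. The genes and gene lists were chosen with earlier results of these data known. The bulk table holds expected counts (estimated counts per gene, not whole numbers), as deposited by the authors; the submitters' processing notes name Salmon 1.4.0, edgeR 3.34.0, limma 3.48.1 and Seurat 4.0.2 without their roles. Single-cell matrices hold UMI counts by gene and barcode from Cell Ranger 3.0.2, per the file headers, and lists of gene and barcode names of no numeric unit (other), as deposited. The genome is GRCh38 per the labels.

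Expected counts were rounded. Genes were kept by filterByExpr, libraries were scaled by TMM, and edgeR 4.0.16 quasi-likelihood tests were fitted once per time point (6 h, 24 h, 72 h) or over the 2 times compared, with the groups sharing an estimate of the spread. Genes passed at a Benjamini-Hochberg adjusted p under 0.05 over all genes tested. Counts at an unadjusted p under 0.05 are given without the share of all genes at that threshold. Standard errors are the log2 difference divided by the square root of F, and intervals are unadjusted 95% intervals. Statements that the libraries of groups do not overlap describe the values only, without the share of all genes so separated. In all, 21 comparisons were made; those against CHIR at a time, and those against Activin A endoderm, share controls. The tests were checked on data simulated with the fitted spread. How many changes of the sizes reported here were recovered is not given, so nothing on their detection is drawn from the check. The replicate numbers were not taken as pairs: correlations of deviations between groups with the same number ran from -0.058 to 0.032 at 6 h, from -0.033 to 0.027 at 24 h and from -0.155 to 0.175 at 72 h. Alternatives were DESeq2 1.42.0, RLE scaling, no low-count filter, the replicate number as a block and a fit over all 30 libraries. Others were fits without the BRD-alone libraries or the MTRNR2L genes, and leaving out each library. Counts of genes called under these alternatives are given without the share of all genes called in the same fit.

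Genes named were all 34 of the list, and from the other lists at most the 3 called genes of smallest p per list and comparison. Cells under 500 genes or over 10% mitochondrial UMIs were left out; doublets were not removed. Intervals of single-cell values are exact Poisson and cover counting error only. A deposited aggregate of the same cells was not used.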

Additional observations from a re-analysis of the deposited data

Results flagged for a closer look

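HK2 was flagged because its response to Activin A differed between 6 h and 24 h. At 6 h it lay at 109 and 100.1 CPM with CHIR and 68.1 and 75.2 with AA+CHIR, a log2 difference of -0.55 ± 0.11. At 24 h it lay at 185 and 159 and 194 and 201 CPM, a log2 difference of 0.20 ± 0.13 (adjusted p = 0.552). The difference of differences was 0.75 ± 0.17 (adjusted p = 0.0228, edgeR), and HK2 was the 1 gene of 34 that passed, where 1.9% of 15717 genes were called. PKM came next at 0.41 ± 0.11 (adjusted p = 0.063). The HK2 value ran from 0.64 to 0.86 when single libraries were left out and kept its sign in all 8. Its adjusted p was above 0.05 without 24 h AA+CHIR replicate 2 (0.0661), 6 h CHIR replicate 1 (0.128), 6 h CHIR replicate 2 (0.0524), 24 h CHIR replicate 2 (0.0967) or 6 h AA+CHIR replicate 1 (0.131), and in a fit over all 30 libraries (0.0775). In these arms each time point is a library series of its own. A series effect cancels in this difference of differences where it acts alike on both arms. One that acts unlike on them cannot be told apart from time.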

How the results depend on the processing

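No call on a gene reversed under any alternative run; of 123 calls of a gene in a comparison, 74 were kept in every alternative and 49 were lost in at least 1. Counts of genes called moved by over 1.5 times as follows; the cause was not tested. DESeq2 called 5 for CHIR against untreated, 1 for JNJ+CHIR against CHIR and 1 for JNJ+CHIR against BRD+CHIR at 6 h. At 24 h it called 4 for AA+CHIR, 14 for JNJ+CHIR against CHIR and 15 against BRD+CHIR, and it called 2 and 7 for the change of the AA and JNJ effects with time. A fit over all 30 libraries gave 1 (CHIR against untreated), 1 (AA+CHIR at 6 h), 14 and 14 (JNJ+CHIR at 24 h against CHIR and BRD+CHIR) and 0 (change of the AA effect). Without the BRD-alone libraries the counts were 5 (AA+CHIR at 24 h), 13 and 14 (JNJ+CHIR at 24 h), 2 (change of the AA effect) and 3 (change of the JNJ effect). RLE scaling gave 1 for AA+CHIR at 24 h, and no low-count filter gave 1 for JNJ+CHIR against BRD+CHIR at 6 h. With the replicate number as a block, AA+CHIR at 24 h had 1 call; the other counts stayed within 1.5 times, and the numbers do not pair the samples. Thinning cells to 5000 UMIs gave 3 genes apart at 36 h in place of 1. Leaving out single libraries gave 1 to 2 calls for CHIR against untreated, 0 to 2 for AA+CHIR at 6 h, 0 to 0 for AA+CHIR at 24 h, 0 to 4 and 0 to 3 for JNJ+CHIR at 24 h against CHIR and BRD+CHIR, and 0 to 0 for BRD+CHIR at either time and JNJ+CHIR at 6 h. It gave 10 to 13, 10 to 16 and 6 to 10 for BRD, JNJ and BRD+LoAA endoderm, and 0 to 0 between compounds at 72 h. For time it gave 17 to 18 (CHIR), 15 to 17 (AA+CHIR), 3 to 9 (BRD alone) and 15 to 21 (endoderm against 24 h), and for changes of effects 0 to 1 (AA), 0 to 0 (BRD) and 0 to 3 (JNJ). With 2 libraries a group, a left-out library leaves a lone sample that is assumed to vary like the other groups. The spread between libraries (edgeR's common biological coefficient of variation) was 0.14 in the 6 h fit, 0.406 in the 24 h fit and 0.165 in the 72 h fit, and thinly counted genes such as MPC1, MPC2 and PDK4 are limited by depth.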

Other observations

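Genes beside the pathway were also read in the single cells, with 1 library each and no test. BNIP3, a mitophagy receptor known as a hypoxia-induced gene, stood at 183 CPM of UMIs at 36 h, 651 in Endo and 1041 in Meso, an order that SLC16A3 and LDHA also had. EGLN1, a HIF hydroxylase, stood at 2.32, 4.79 and 14.9. VEGFA, an angiogenic growth factor, was highest in Endo, at 18.6 against 2.28 at 36 h and 6.12 in Meso.

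The malate dehydrogenases were lower in both 72 h libraries: MDH2, the mitochondrial form, had 384 at 36 h, 151 in Endo and 169 in Meso, and MDH1, the cytosolic form, had 273, 95.1 and 141. IDH2, a mitochondrial isocitrate dehydrogenase, was highest in Meso, at 74.2 against 41.8 and 18.4. These genes were chosen after their values were seen.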
